A study of Homo sapiens with 19 samples.

Results

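The spliceosome removes introns from pre-mRNA, and 38 genes for its U2, U5 and catalytic proteins were followed here through 2 colorectal cancer cell lines treated with inhibitors of protein arginine methyltransferases (PRMTs). The 38 genes were taken by symbol: SF3A1, SF3A2, SF3A3 and SF3B1 to SF3B6 of the U2 particle, U2AF1 and U2AF2, PRPF8, SNRNP200 and EFTUD2 of the U5 particle, 8 proteins of the tri-snRNP and its activation, 6 of the Prp19 complex and catalytic scaffold, 7 further helicases, and 3 proteins of the second step and of exon joining. All 38 were found in each of the 3 deposited gene tables, out of 84354 gene IDs in the tables together.

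The tested groups were HCT116 cells given 10 µM GSK025 (GSK3235025, labelled a PRMT5 inhibitor), HCT116 cells given 5 µM GSK715 (GSK3368715, labelled a PRMT1 inhibitor) and WiDr cells given 5 µM GSK715, each for 96 h and each set against the same line kept for 96 h in DMSO, the solvent. HCT116 and WiDr are established lines of human colorectal carcinoma. Poly(A)-selected RNA was read with short paired-end reads in both lines (n = 3 libraries per group), and WiDr was also read as full-length cDNA on an Oxford Nanopore (ONT) instrument (n = 2 libraries per group). Each compound was used at 1 dose and 1 time, and no label says whether replicates came from cultures of their own, so the p-values reflect spread among these libraries only. In RNA of whole cultures, fewer cells of a type and less RNA per cell cannot be told apart.

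In the splicing cycle, U2AF marks the 3′ end of an intron and the U2 particle, through its SF3a and SF3b proteins, clasps the branch site. The U4/U6.U5 tri-snRNP then joins, and helicases such as SNRNP200 of U5 unwind the RNA pairs that hold it closed. PRPF8 and EFTUD2 of U5 and the Prp19 complex help to hold the catalytic centre. PRMT5 methylates the Sm proteins around which such particles are built, PRMT1 methylates many RNA-binding proteins, and PRMT9 methylates SF3B2, so the pathway is a well known substrate of this enzyme family.

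A short sequence recurred in the promoters of the group. RefSeq (GRCh38.p14) gave 250 bases before the start of 36 of the 38 genes, and PRPF3 and SF3B3 had no entry. The letters CCGGAAG on either strand, the core bound by ETS factors, stood in 19 of these 36 promoters (52.8%), against 8.82% of 27305 promoters of all genes, 11.8% of 15843 of protein-coding genes and 14.6% of 11631 of protein-coding genes tested in HCT116. The NRF1 motif stood in 16.7% of the 36 promoters, against 9.55% of those of tested protein-coding genes, the GC box GGGCGG in 72.2%, against 65.7%, CCAAT in 30.6%, against 34.9%, and TATAAA in 5.56%, against 5.91%. Each motif was searched on both strands and counted alone, so matches of different motifs may overlap.

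Below are 6 promoters, those of the members with the highest rise and the deepest fall in each short-read comparison with DMSO: U2AF2 and SF3B1 with GSK025 in HCT116, SART1 and AQR with GSK715 in HCT116, and SF3A3 and BCAS2 with GSK715 in WiDr. They show where the letters stand or are missing in the genes at the ends of each response. They are printed 5′ to 3′ on the strand of the gene, with the ETS letters in capitals, as CTTCCGG where the match is on the other strand. The windows are U2AF2 at chr19:55654785-55655034 (plus strand), SF3B1 at chr2:197435029-197435278 (minus strand), SART1 at chr11:65961484-65961733 (plus strand), AQR at chr15:34969743-34969992 (minus strand), SF3A3 at chr1:37990023-37990272 (minus strand) and BCAS2 at chr1:114581616-114581865 (minus strand).
U2AF2: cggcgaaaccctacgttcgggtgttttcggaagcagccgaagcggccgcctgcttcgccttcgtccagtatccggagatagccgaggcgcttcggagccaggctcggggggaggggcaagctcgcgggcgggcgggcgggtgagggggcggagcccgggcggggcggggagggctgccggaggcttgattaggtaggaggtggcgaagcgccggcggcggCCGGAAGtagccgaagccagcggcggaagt
SF3B1: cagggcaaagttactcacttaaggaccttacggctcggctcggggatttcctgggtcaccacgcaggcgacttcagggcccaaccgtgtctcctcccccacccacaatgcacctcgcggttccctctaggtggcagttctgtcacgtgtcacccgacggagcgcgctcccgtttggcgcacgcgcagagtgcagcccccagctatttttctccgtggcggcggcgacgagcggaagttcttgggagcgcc
SART1: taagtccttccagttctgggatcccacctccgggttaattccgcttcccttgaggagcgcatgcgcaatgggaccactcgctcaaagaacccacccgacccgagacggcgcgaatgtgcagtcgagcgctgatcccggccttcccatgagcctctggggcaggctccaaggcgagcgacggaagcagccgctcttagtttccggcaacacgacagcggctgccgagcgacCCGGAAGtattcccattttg
AQR: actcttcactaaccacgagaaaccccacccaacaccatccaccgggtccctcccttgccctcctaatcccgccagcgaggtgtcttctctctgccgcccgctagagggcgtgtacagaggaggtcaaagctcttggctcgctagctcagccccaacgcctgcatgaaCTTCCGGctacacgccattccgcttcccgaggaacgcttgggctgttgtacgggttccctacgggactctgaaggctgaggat
SF3A3: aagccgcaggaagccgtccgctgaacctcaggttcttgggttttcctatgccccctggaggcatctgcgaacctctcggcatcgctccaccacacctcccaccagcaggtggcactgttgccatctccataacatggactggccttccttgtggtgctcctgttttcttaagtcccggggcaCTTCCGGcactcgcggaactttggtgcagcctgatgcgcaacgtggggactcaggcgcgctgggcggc
BCAS2: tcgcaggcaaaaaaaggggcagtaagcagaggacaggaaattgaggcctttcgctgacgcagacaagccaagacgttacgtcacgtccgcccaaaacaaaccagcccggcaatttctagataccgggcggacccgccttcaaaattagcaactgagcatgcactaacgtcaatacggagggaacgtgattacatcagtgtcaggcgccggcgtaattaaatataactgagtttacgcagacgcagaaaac

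The match began 30 bases before the start in U2AF2, 20 bases before it in SART1, 83 bases before it in AQR and 68 bases before it in SF3A3, whereas SF3B1 and BCAS2 held none. The U2AF2 and SF3A3 windows lie inside the longer gene models of GENCODE 29, and those of SF3B1, SART1, AQR and BCAS2 overlap theirs in part. The matches of U2AF2, SART1, AQR and SF3A3 all lie within these gene models. By these letters, with GSK025 in HCT116, 12 of 19 with them rose and 3 fell, and 9 of 17 without them rose and 4 fell. Of all genes tested there, 22% rose and 22.1% fell. With GSK715 in HCT116, 13 of 19 with them rose and 3 fell, and 10 of 17 without them rose and 5 fell. The shares of all genes were 22.1% and 24.2%. With GSK715 in WiDr, 7 of 19 with them rose and 8 fell, and 6 of 17 without them rose and 8 fell, beside 33.6% and 32.2% of all genes. A match is a description of the letters, not of a bound site.

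Depth was 64.6 to 66.9 M counts (megacounts) per library in HCT116, 59.6 to 82.4 M counts in WiDr short reads and 1.45 to 1.67 M counts in ONT. Members had 1387 to 67551 counts per library in HCT116, 935 to 35891 in WiDr short reads and 4 to 829 in ONT. Both lines expressed the epithelial genes KRT8, KRT18, EPCAM and CDH1. Levels are in CPM, counts per M counts of the tested genes in the library, scaled as described below. VIL1, however, was at most 0.679 CPM in HCT116 and CDX2 at most 1.84 CPM in WiDr. Of 8 markers of immune, fibroblast and endothelial cells, CD68 and COL1A1 passed 5 CPM in a short-read library, and PTPRC had 0 counts in HCT116. Their summed level was 38.8 to 44.6 CPM with GSK025 and 100 to 109 CPM with GSK715 in HCT116, against 53.7 to 57.8 CPM with DMSO, and 38.6 to 45.4 CPM with GSK715 in WiDr, against 21.1 to 23.3 CPM with DMSO. Their part in the results was not tested.

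All levels, those of the markers included, are CPM scaled by the trimmed mean of M-values (TMM). Changes are given as log2 fold changes (log2FC), each with a standard error (SE) derived from the F statistic, and were tested with edgeR's quasi-likelihood test and adjusted by Benjamini-Hochberg over all genes of the table. A gene is said to rise, fall or differ where the adjusted p was under 0.05. Per kilobase of transcript, the DMSO level in HCT116 was highest for SF3B2 (154 ± 2.31 CPM per kb, SD, n = 3) and SF3B6 (153 ± 4.63), which did not differ beyond their spread, and lowest for AQR (4.66 ± 0.209). In WiDr short reads with DMSO, U2AF2 was highest (242 ± 9.79 CPM per kb) and CDC40 lowest (8.25 ± 0.397). In ONT with DMSO, SF3B6 was highest (648 ± 20 CPM per kb, n = 2), while U2AF2 had rank 9 (28.5 ± 5.97). Both read types were divided by transcript length, although a full-length read counts a molecule once at any length. Short transcripts such as SF3B6 (770 bases) are thereby ranked higher in ONT. Without division by length, SF3B6 with DMSO had 499 CPM in ONT and 80.1 CPM in WiDr short reads. U2AF2 had 48.4 CPM in ONT and 412 CPM in short reads. The ranking per kilobase in WiDr thus differed between read types, and the part of this unit in it was not tested.

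In HCT116, GSK025 raised most genes of the U5 particle, the tri-snRNP and SF3a, and lowered SF3B1 and some helicases. PRPF8, the scaffold that cradles the active site, reached 942 ± 84.6 CPM with GSK025, against 492 ± 1.3 CPM with DMSO, a 1.91-fold rise. In all, 23 of the 38 members rose and 7 fell, while 22% of all 19751 genes tested rose and 22.1% fell (44.1% in all). The median log2FC was 0.38 over the members and -0.018 over all genes tested. The 38 genes together took 0.643% to 0.688% of the counts with GSK025, against 0.544% to 0.546% with DMSO.

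**Figure D1:**
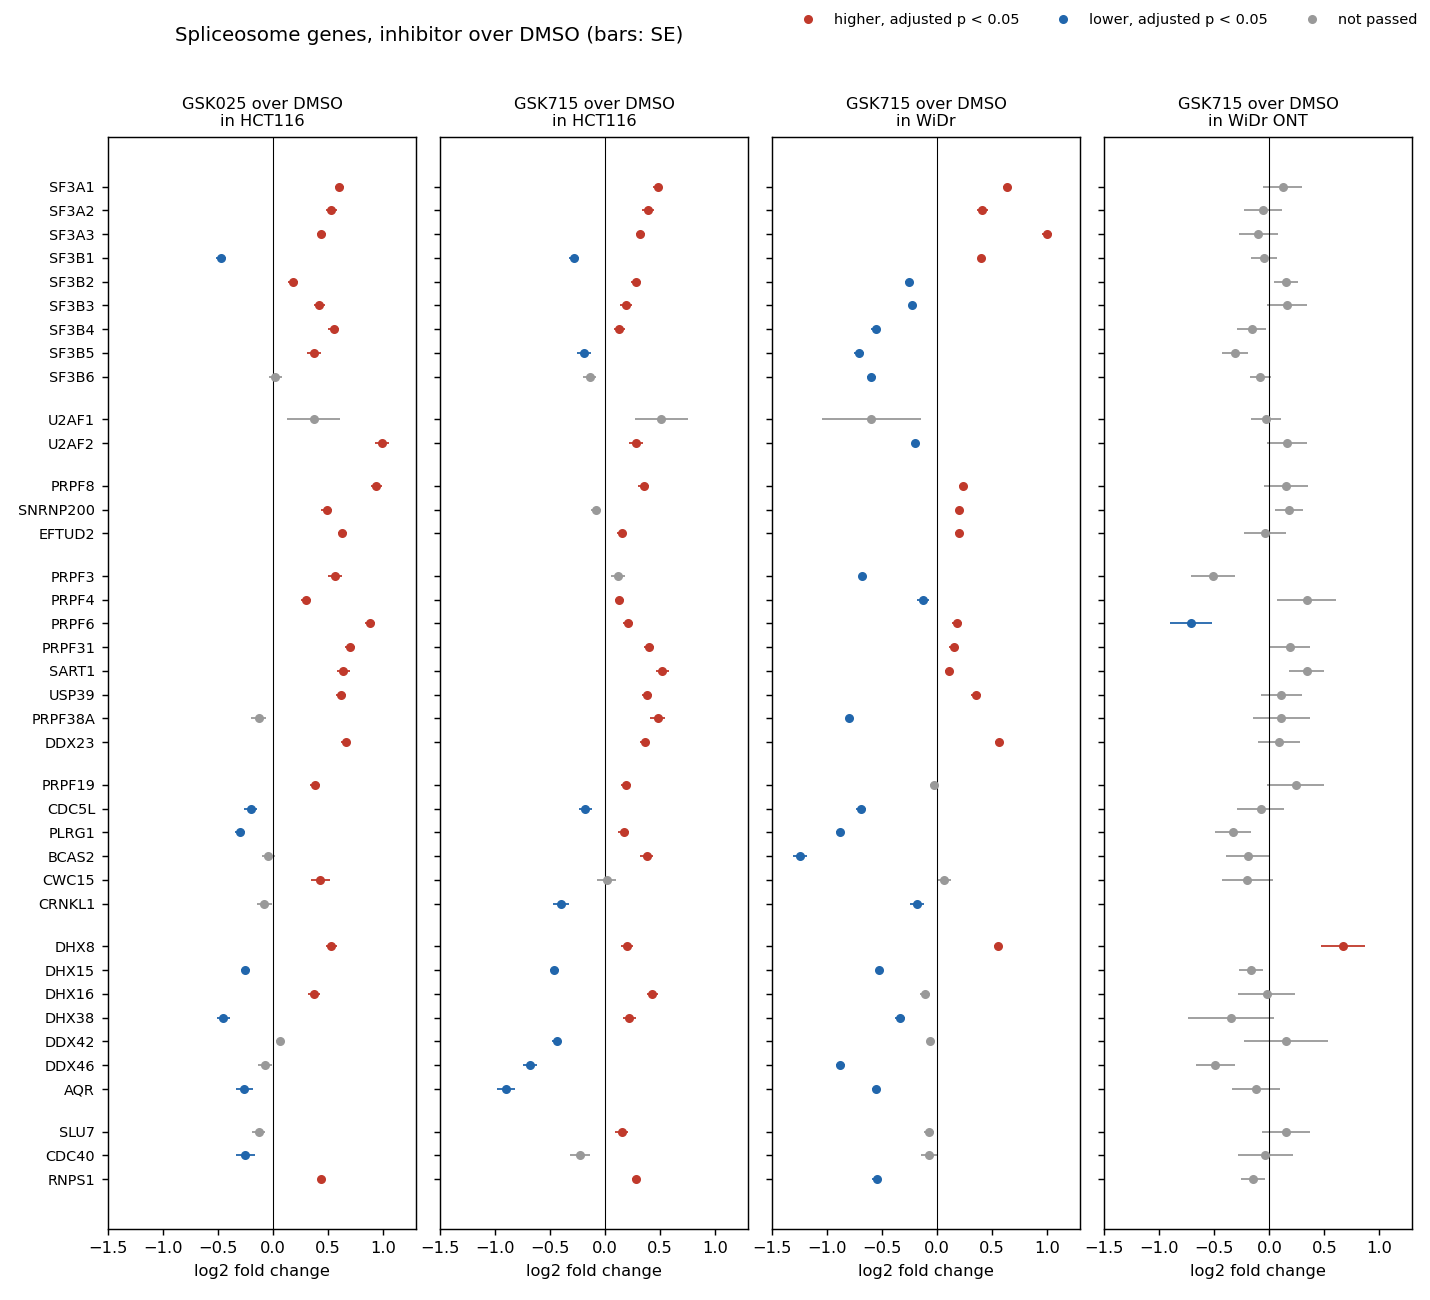
Log2 fold change of each gene (rows, grouped by role) for inhibitor over DMSO in 4 panels, with horizontal bars for the SE. Red points passed as higher and blue as lower at an adjusted p of 0.05, and grey points did not pass. With GSK025 the U5 and tri-snRNP rows lie right of 0 except PRPF38A, and in WiDr the row of BCAS2 lies farthest left, at -1.25.

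The U5 core rose as a whole, 3 of 3 genes. PRPF8 (ENSG00000174231, GRCh38 chromosome 17, 1650629 to 1684882) had 1010, 965 and 848 CPM in the GSK025 libraries, against 493, 493 and 490 CPM in the DMSO libraries (log2FC 0.94, SE 0.053, adjusted p = 3.4e-08). Every GSK025 library lay far above the DMSO libraries, which were almost equal. SNRNP200, the helicase that unwinds U4 from U6, averaged 704 ± 54.9 CPM with GSK025 and 501 ± 8.10 CPM with DMSO (log2FC 0.49, adjusted p = 3.5e-06). EFTUD2, the GTPase of U5, averaged 208 ± 6.28 CPM with GSK025 and 134 ± 0.366 CPM with DMSO (log2FC 0.63, adjusted p = 1.4e-07).

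Of the 8 tri-snRNP and activation genes, 7 rose and none fell, with a median of 0.63. PRPF6, which bridges U5 and U4/U6, had 216, 226 and 210 CPM with GSK025, against 118, 121 and 114 CPM with DMSO (log2FC 0.88, SE 0.045, adjusted p = 1.5e-08). PRPF31, a U4/U6 protein mutated in inherited retinal degeneration, had 90.5, 88.2 and 87 CPM with GSK025, against 54.4, 54.9 and 54.4 CPM with DMSO (log2FC 0.70, SE 0.044, adjusted p = 7e-08). Neither gene's groups overlapped. The level of PRPF31 is uncertain, because an antisense gene covers 22% of its exonic bases and no source gives the strand setting of the counting. DDX23, which displaces U1 from the 5′ splice site (log2FC 0.66), SART1 (0.64), USP39 (0.62), PRPF3 (0.56) and PRPF4 (0.30), all of the tri-snRNP, rose too. PRPF38A, which joins the complex before activation, did not pass (log2FC -0.13, SE 0.068, adjusted p = 0.141).

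Of the 9 U2 genes, 7 rose and 1 fell. SF3A1 (log2FC 0.60), SF3A2 (0.53) and SF3A3 (0.44), the SF3a trimer, all rose, as did SF3B4 (0.55), SF3B3 (0.42), SF3B5 (0.37) and SF3B2 (0.18) of SF3b. SF3A2 shares 12.7% of its exonic bases with PLEKHJ1 on the other strand and is uncertain for the same reason as PRPF31. SF3B1 (ENSG00000115524, GRCh38 chromosome 2, 197389784 to 197435091), the large subunit around the branch site and the one most often mutated in cancer, had 297, 269 and 296 CPM with GSK025, against 406, 387 and 404 CPM with DMSO (log2FC -0.47, SE 0.046, adjusted p = 2.5e-06). All 3 GSK025 libraries lay below the DMSO libraries, opposite to most of its partners. SF3B6, which touches the branch adenosine, had a log2FC of 0.021 (adjusted p = 0.826).

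U2AF2, the large U2AF subunit that binds the polypyrimidine tract, had the highest log2FC of the group. U2AF2 (ENSG00000063244, GRCh38 chromosome 19, 55654146 to 55674715) had 118, 129 and 121 CPM with GSK025, against 63, 65.8 and 56.3 CPM with DMSO (log2FC 0.99, SE 0.063, adjusted p = 8e-08). The lowest GSK025 library was well above the highest DMSO library. PRMT9, the enzyme known to act on SF3B2, averaged 6.66 ± 0.325 CPM with GSK025 and 13.1 ± 1.87 CPM with DMSO (log2FC -0.98, SE 0.12, adjusted p = 2.6e-05). With GSK715, PRMT9 fell in WiDr short reads too (-1.30, adjusted p = 2.5e-05) but did not pass in HCT116 (-0.076, adjusted p = 0.654). PRMT5 (0.84) and PRMT1 (0.42) rose with GSK025.

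The Prp19 complex and the helicases were mixed. PRPF19, the ubiquitin ligase that names the complex (log2FC 0.38), and CWC15 (0.43) rose, whereas CDC5L (-0.20) and PLRG1 fell. PLRG1, a WD-repeat protein of the complex, had 93.3, 90.3 and 97.2 CPM with GSK025, against 117, 111 and 117 CPM with DMSO (log2FC -0.30, SE 0.049, adjusted p = 0.00024). DHX38, the remodeller between the catalytic steps, had 65.5, 71 and 62.8 CPM with GSK025, against 94.5, 90.5 and 86.9 CPM with DMSO (log2FC -0.45, SE 0.061, adjusted p = 4.7e-05). In both genes the GSK025 libraries were all lower. AQR, an intron-binding helicase, had 41.5, 34.4 and 37.4 CPM with GSK025, against 43.9, 47.5 and 44.1 CPM with DMSO (log2FC -0.26, SE 0.078, adjusted p = 0.0156), a narrow gap without overlap. DHX15, which takes apart the spent complex, fell (log2FC -0.25), while DHX8, which frees the mRNA (0.53), and DHX16, which starts the first step (0.37), rose.

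Of the last 3 proteins, RNPS1, which stays with joined exons, rose (log2FC 0.44), CDC40 of the second step fell (-0.25) and SLU7, which helps choose the 3′ splice site, did not pass (-0.13, adjusted p = 0.0975). BCAS2 (-0.044), CRNKL1 (-0.078), DDX42 (0.064) and DDX46 (-0.076) did not pass either, with adjusted p from 0.211 to 0.602. Leaving out GSK025 replicate 2 left 4 falling members, as AQR, CDC5L and CDC40 then had adjusted p of 0.0828, 0.0537 and 0.178. AQR and CDC40 also lost their calls without DMSO replicate 2 (0.073 and 0.208), CDC5L without DMSO replicate 1 or GSK025 replicate 3 (0.0594 and 0.0528) and CDC40 without GSK025 replicate 1 (0.0917).

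**Figure D2:**
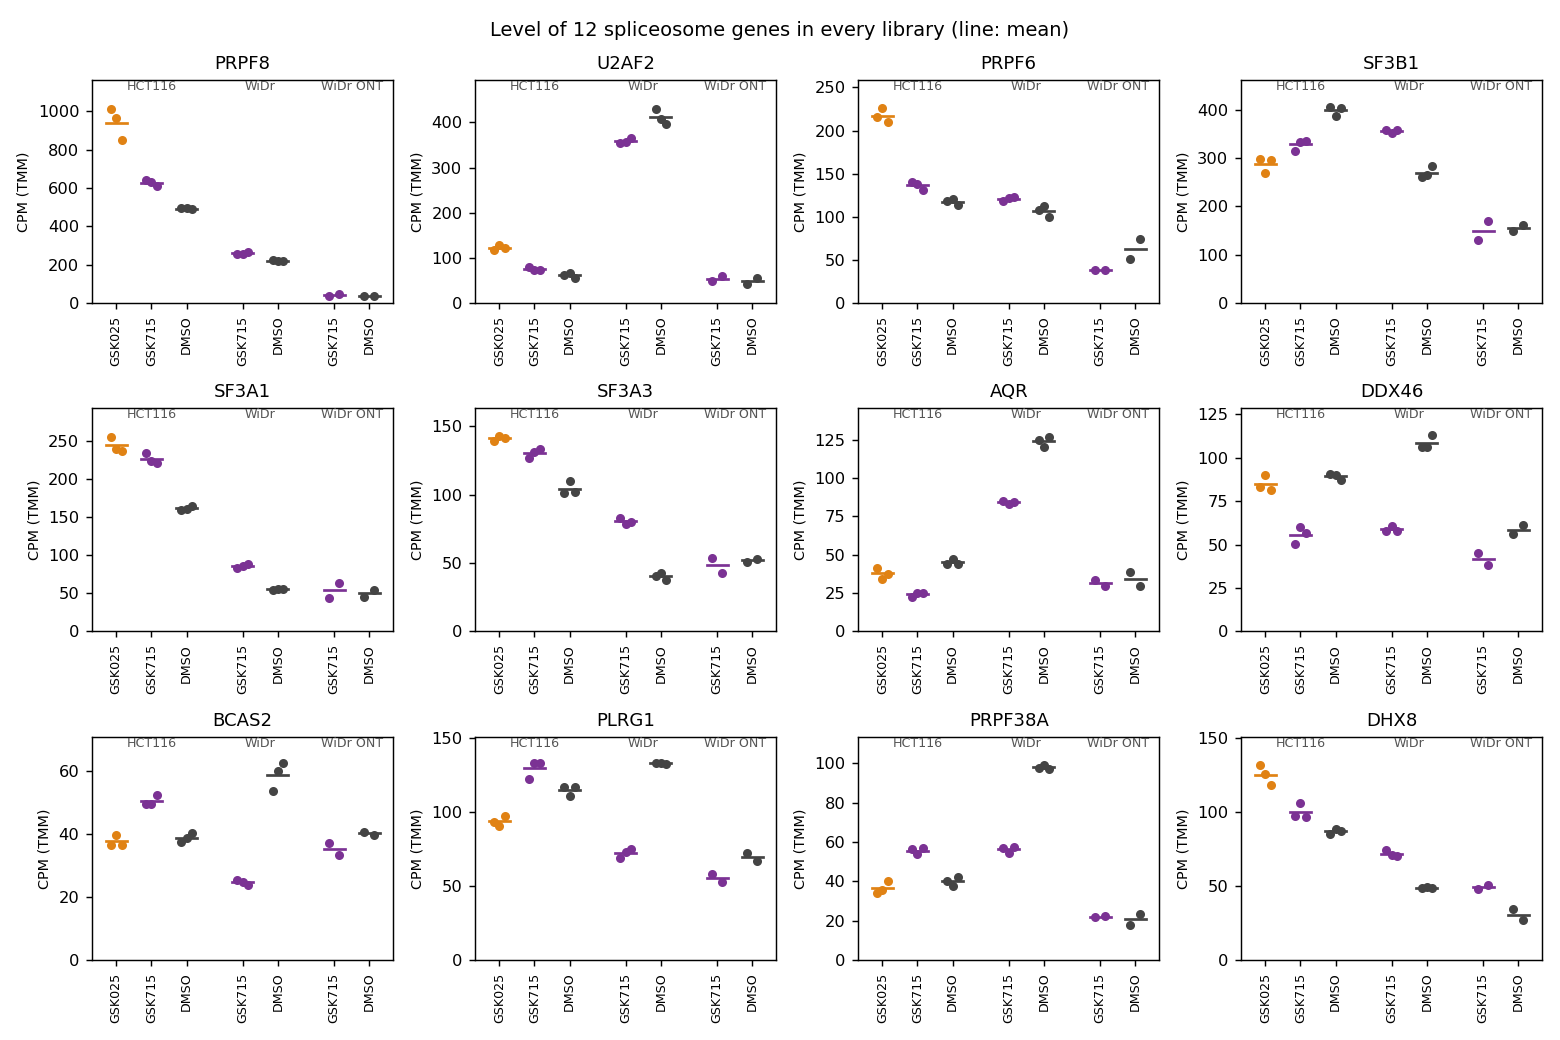
Level of 12 members in every library (y axis: TMM-scaled CPM from 0), by line and read type with inhibitor groups left of DMSO; points are libraries and lines group means. PRPF8 with GSK025 stands at 848 to 1010 CPM, above all other HCT116 libraries, and BCAS2 in WiDr short reads at 23.9 to 25.3 CPM with GSK715, below DMSO.

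GSK715 in HCT116 was set against the same 3 DMSO libraries, so the responses to the inhibitors are not independent of each other. Here the rises were smaller and a set of helicases fell. SART1, a tri-snRNP protein, showed the highest rise at 1.43-fold, and AQR the deepest fall at 1.87-fold. In all, 24 of 38 members rose and 8 fell, while 22.1% of all 19751 genes tested rose and 24.2% fell (46.4% in all). The median log2FC was 0.19 over the members and -0.052 over all genes. Scaling by library totals in place of TMM moved the median of all genes by -0.16, and then 13 members rose and 11 fell, against 2994 and 6343 of all genes. Of the 24 rises, those of SF3B3, U2AF2, PRPF6, PRPF19, PLRG1, DHX8 and DHX38 no longer passed (log2FC from 0.0075 to 0.12), and SF3B4, EFTUD2, PRPF4 and SLU7 turned below 0. The share of counts held by the 38 genes was 0.525% to 0.53% with GSK715, against 0.544% to 0.546% with DMSO.

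SF3A1 of the SF3a trimer had 234, 224 and 221 CPM with GSK715, against 160, 161 and 165 CPM with DMSO (log2FC 0.48, SE 0.041, adjusted p = 6.8e-07). SF3A2 (0.39), SF3A3 (0.32), SF3B2 (0.28), SF3B3 (0.19) and SF3B4 (0.13) rose as well, though SF3B4 turned to -0.029 with library totals. SF3B1 had 314, 334 and 336 CPM with GSK715, against 406, 387 and 404 CPM with DMSO (log2FC -0.28, SE 0.046, adjusted p = 0.00019), and SF3B5 fell (-0.19). The SF3A1 libraries with GSK715 were all above, and the SF3B1 libraries all below, those with DMSO. U2AF2 rose to 75 ± 3.90 CPM with GSK715, against 61.7 ± 4.83 CPM with DMSO (log2FC 0.28, adjusted p = 0.00231), but did not pass with library totals (0.12, adjusted p = 0.12).

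In U5, PRPF8 rose (log2FC 0.35, adjusted p = 0.00011), EFTUD2 rose by 0.15 with TMM but had -0.0057 with library totals, and SNRNP200 did not pass (-0.083, adjusted p = 0.198). In the tri-snRNP, 7 of 8 genes rose. SART1 had 133, 125 and 116 CPM with GSK715, against 87.2, 85.2 and 88.5 CPM with DMSO (log2FC 0.52, SE 0.059, adjusted p = 9e-06). PRPF38A had 56.3, 53.8 and 56.7 CPM with GSK715, against 40.1, 37.8 and 42 CPM with DMSO (log2FC 0.48, SE 0.068, adjusted p = 6.7e-05). The groups of both genes were clearly apart. With library totals 2 of the 7 no longer passed: PRPF4, a U4/U6 protein, had 0.13 with TMM and -0.025 with library totals, and PRPF6 had 0.21 with TMM and 0.049 with library totals.

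Among the 7 helicases 3 rose and 4 fell. AQR (ENSG00000021776, GRCh38 chromosome 15, 34851782 to 34969839) had 22.3, 25.2 and 24.9 CPM with GSK715, against 43.9, 47.5 and 44.1 CPM with DMSO (log2FC -0.90, SE 0.079, adjusted p = 8e-07). DDX46, which remodels the U2 particle for branch site binding, had 50.2, 60.2 and 56.8 CPM with GSK715, against 90.7, 89.9 and 87.2 CPM with DMSO (log2FC -0.68, SE 0.065, adjusted p = 1.9e-06). Both genes were far below DMSO in every GSK715 library. DHX15 had 174, 177 and 190 CPM with GSK715, against 251, 248 and 245 CPM with DMSO (log2FC -0.46, SE 0.041, adjusted p = 1e-06). DDX42, a helicase that binds SF3B1, had 155, 152 and 148 CPM with GSK715, against 202, 210 and 205 CPM with DMSO (log2FC -0.44, SE 0.039, adjusted p = 1e-06). The libraries of these helicases did not overlap between the groups. DHX16 had 92, 96.1 and 86.8 CPM with GSK715, against 66, 66.2 and 72.2 CPM with DMSO (log2FC 0.43, SE 0.053, adjusted p = 1.9e-05), all GSK715 libraries being higher. DHX38 (0.22) and DHX8 (0.20) rose with TMM but not with library totals (0.056 and 0.038, adjusted p = 0.462 and 0.615).

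In the Prp19 group BCAS2 (log2FC 0.38), PRPF19 (0.19) and PLRG1 (0.17) rose, CRNKL1 (-0.40) and CDC5L (-0.18) fell and CWC15 did not pass (0.013, adjusted p = 0.923). With library totals PRPF19 (0.026, adjusted p = 0.668) and PLRG1 (0.0075, adjusted p = 0.925) did not pass, and BCAS2 did. Of the last proteins RNPS1 rose (0.28), SLU7 rose by 0.15 with TMM but had -0.0067 with library totals, and CDC40 did not pass (-0.23, adjusted p = 0.0553). SF3B6 (-0.14, adjusted p = 0.0774) and PRPF3 (0.12, adjusted p = 0.135) did not pass. The calls of SF3B4, SF3B5, PRPF4, PLRG1, CDC5L and SLU7 were lost when single libraries were left out. Among these, leaving out DMSO replicate 1 ended SF3B4, SF3B5, PRPF4, CDC5L and SLU7, DMSO replicate 2 all 6, DMSO replicate 3 SF3B4 and SLU7, GSK715 replicate 1 SF3B4 and CDC5L, replicate 2 all but PRPF4, and replicate 3 SF3B5 and PRPF4 (adjusted p from 0.0502 to 0.179).

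Long transcripts had lower log2FC in both HCT116 comparisons, with a Spearman rho of -0.33 in each over 11184 genes of at least 5 CPM, and of -0.245 (GSK025) and -0.204 (GSK715) over the 38 members, points that share libraries. In WiDr the values were -0.0858 over all such genes and 0.237 over the members. Mitochondrially encoded genes took 5.13% to 5.48% of counts with GSK025 and 5.09% to 5.42% with GSK715 in HCT116, against 8.64% to 9.09% with DMSO, and 8.3% to 8.83% with GSK715 in WiDr, against 6.07% to 6.49% with DMSO. The part of transcript length and of this shift in the results was not tested.

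Set directly against each other in HCT116, at 5 µM GSK715 and 10 µM GSK025, the members were mostly lower with GSK715. In all, 26 of 38 were lower and 6 higher with GSK715 than with GSK025, while 22.5% of all genes tested were lower and 21.8% higher (44.3% in all). U2AF2 (log2FC -0.71, SE 0.063), PRPF6 (-0.67, SE 0.045), AQR (-0.65, SE 0.079), DDX46 (-0.60, SE 0.065) and PRPF8 (-0.59, SE 0.053) were lower, each with an adjusted p of 2e-05 or less. DHX38 (0.67, SE 0.061), PRPF38A (0.61, SE 0.068), PLRG1 (0.46, SE 0.049), BCAS2 (0.42, SE 0.059), SLU7 (0.28, SE 0.057) and SF3B1 (0.19, SE 0.046) were higher. The doses differ. The calls of SF3A1, SF3A2, SF3A3 and SF3B6 (log2FC from -0.11 to -0.16) ended with size factors of relative log expression (RLE), with an adjusted p from 0.0511 to 0.0621, and without single libraries of either inhibitor (0.0509 to 0.221), while that of SF3B1 ended with library totals (0.127).

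WiDr answered GSK715 with changes in both directions. SF3A3, a subunit of SF3a, was 2-fold higher with GSK715, and BCAS2, a core protein of the Prp19 complex, was 2.38-fold lower. In all, 13 of 38 members rose and 18 fell in short reads, while 33.6% of all 19340 genes tested rose and 32.2% fell. The share of members that changed, 31 of 38, thus stands beside 65.8% of all genes. The median log2FC was -0.12 over the members and 0.054 over all genes. Scaling by library totals moved the median of all genes by 0.13. It left 14 members higher and 15 lower, against 7495 and 5300 of all genes. The share of counts held by the 38 genes was 0.46% to 0.473% with GSK715, against 0.455% to 0.468% with DMSO.

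In short reads the U2 proteins parted by subcomplex except for SF3B1. SF3A3 (ENSG00000183431, GRCh38 chromosome 1, 37956975 to 37990921) had 82.6, 78.6 and 80.1 CPM with GSK715, against 40.8, 42.4 and 37.8 CPM with DMSO (log2FC 1.00, SE 0.047, adjusted p = 3.5e-08). SF3A1 had 83.7, 86.1 and 88.7 CPM with GSK715, against 55, 55.4 and 56.1 CPM with DMSO (log2FC 0.63, SE 0.034, adjusted p = 8.3e-08). With SF3A2 (0.41) all 3 SF3a genes rose, and no library of SF3A1 or SF3A3 overlapped the other group. In ONT none of the 3 passed, with a log2FC of 0.12 for SF3A1, -0.058 for SF3A2 and -0.10 for SF3A3. Of the 6 SF3b genes only SF3B1 rose, to 356 ± 3.25 CPM with GSK715, against 269 ± 11.9 CPM with DMSO (log2FC 0.40, adjusted p = 3e-06). SF3B5 (-0.71), SF3B6 (-0.60), SF3B4 (-0.56), SF3B2 (-0.26) and SF3B3 (-0.23) fell. U2AF2 fell to 359 ± 5.78 CPM with GSK715, against 412 ± 16.6 CPM with DMSO (log2FC -0.20, adjusted p = 0.00044), a call that ended with library totals. In ONT, U2AF2 had 48.4 ± 10.1 CPM with DMSO and did not pass (log2FC 0.16, adjusted p = 0.67). Its level in WiDr short reads is therefore uncertain.

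In U5, PRPF8 (log2FC 0.23), SNRNP200 (0.20) and EFTUD2 (0.20) rose by similar small amounts. In the tri-snRNP 5 genes rose and 3 fell. DDX23 had 133, 133 and 137 CPM with GSK715, against 90.5, 90.4 and 93.3 CPM with DMSO (log2FC 0.56, SE 0.031, adjusted p = 1.2e-07). PRPF38A had 57, 54.5 and 57.2 CPM with GSK715, against 97.5, 99.1 and 96.9 CPM with DMSO (log2FC -0.80, SE 0.033, adjusted p = 1.3e-08). DDX23 was higher and PRPF38A lower in every GSK715 library. PRPF3 (-0.68) and PRPF4 (-0.13) fell, and USP39 (0.35), PRPF6 (0.18), PRPF31 (0.15) and SART1 (0.11) rose.

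The Prp19 group had no rise and 4 falls. BCAS2 (ENSG00000116752, GRCh38 chromosome 1, 114567557 to 114581639) had 25.3, 24.8 and 23.9 CPM with GSK715, against 53.7, 59.9 and 62.5 CPM with DMSO (log2FC -1.25, SE 0.063, adjusted p = 5.7e-08). PLRG1 had 68.7, 73 and 75.1 CPM with GSK715, against 133, 133 and 132 CPM with DMSO (log2FC -0.88, SE 0.037, adjusted p = 1.7e-08). In both genes the highest GSK715 library stayed far below the lowest DMSO library. CDC5L, another core protein (-0.69), and CRNKL1 (-0.18) fell, whereas PRPF19 (-0.03, adjusted p = 0.499) and CWC15 (0.066, adjusted p = 0.33) did not pass.

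Of the helicases, DHX8 rose and 4 fell. DHX8 had 74.6, 70.9 and 70.3 CPM with GSK715, against 48.9, 49.5 and 48.5 CPM with DMSO (log2FC 0.55, SE 0.037, adjusted p = 4.7e-07). DDX46 had 58, 60.9 and 58 CPM with GSK715, against 106, 106 and 113 CPM with DMSO (log2FC -0.88, SE 0.039, adjusted p = 2.2e-08). The groups of both genes were widely apart. AQR (-0.56), DHX15 (-0.53) and DHX38 (-0.34) fell, and DHX16 (-0.11, adjusted p = 0.0663) and DDX42 (-0.062, adjusted p = 0.0893) did not pass. RNPS1 fell (-0.55), and SLU7 (-0.078, adjusted p = 0.168) and CDC40 (-0.076, adjusted p = 0.368) did not pass. The calls of PRPF4 and CRNKL1 also ended with library totals. Without single libraries, PRPF4 lost its call without DMSO or GSK715 replicates 1 or 2, SART1 without DMSO replicates 2 or 3 or GSK715 replicates 1 or 3, and CRNKL1 without DMSO or GSK715 replicates 2 or 3 (adjusted p from 0.0554 to 0.111).

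Whether the lines differ in their response to GSK715 was tested as an interaction over the genes of both short-read tables, as WiDr minus HCT116. BCAS2 of the Prp19 complex, PRPF38A and RNPS1 fell in WiDr and rose in HCT116, and SF3B1 did the reverse. In all, 22 of 38 members had a lower and 7 a higher log2FC in WiDr, while 23.5% of 21791 genes were lower and 23.2% higher (46.7% in all). The median difference was -0.29 over the members and 0.12 over all genes. With library totals the median of all genes moved by 0.35, and then 13 members were lower and 17 higher in WiDr, against 3203 and 7321 of all genes.

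**Figure D3:**
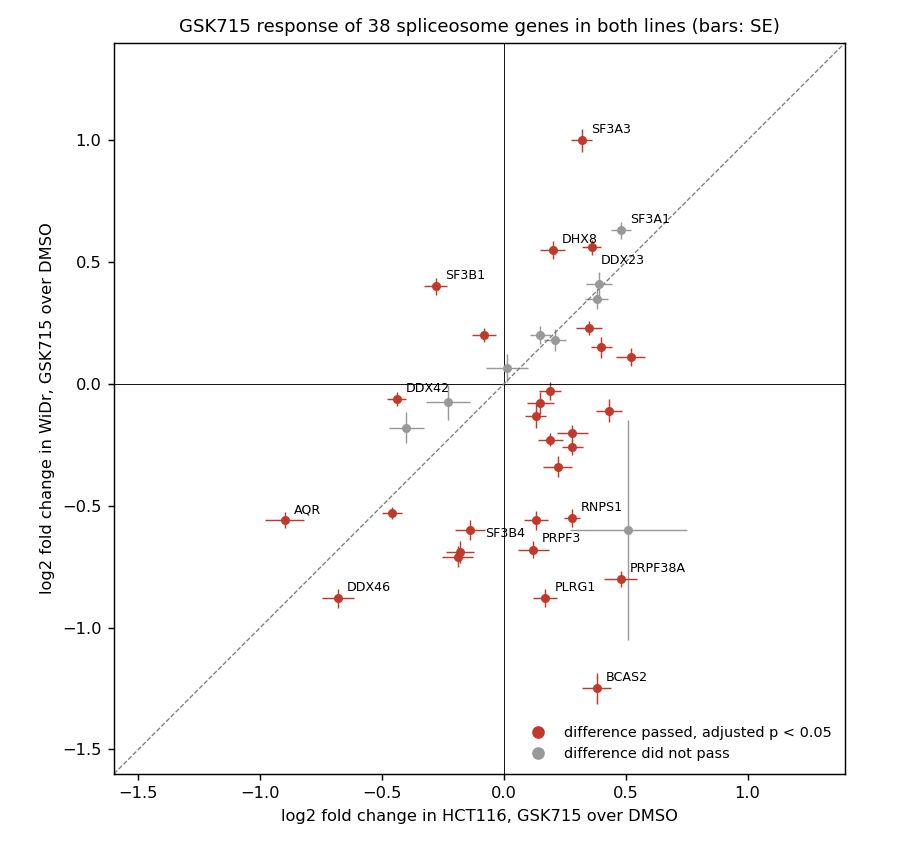
Log2 fold change with GSK715 over DMSO of each member in HCT116 (x axis) and in WiDr short reads (y axis), with bars for the SE and a dashed line of equal response. Red points passed the test of the difference between the lines and grey points did not. BCAS2, PRPF38A and PLRG1 lie in the lower right, at -1.25, -0.80 and -0.88 in WiDr, and SF3B1 in the upper left.

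The largest difference was that of BCAS2 (log2FC -1.25 in WiDr, against 0.38 in HCT116, difference -1.70, SE 0.085, adjusted p = 2.7e-09). PRPF38A (-0.80 in WiDr, 0.48 in HCT116, difference -1.34) and PLRG1 (-0.88 in WiDr, 0.17 in HCT116, difference -1.11) followed, though the HCT116 rise of PLRG1 did not pass with library totals (0.0075) or without DMSO replicate 2 or GSK715 replicate 2 (adjusted p = 0.054 and 0.0546). SF3B1 had 0.40 in WiDr, against -0.28 in HCT116 (difference 0.62, SE 0.055, adjusted p = 6.7e-07), and SF3A3 1.00 in WiDr, against 0.32 in HCT116 (difference 0.61). The joint fit has its own scaling, so a difference is not exactly that of the separate fits. The WiDr values are from short reads. In ONT of WiDr, none of BCAS2 (-0.19), PRPF38A (0.11), PLRG1 (-0.33), SF3B1 (-0.049) and SF3A3 (-0.10) passed.

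Of the 28 members that passed in both lines, 11 rose in both, 6 fell in both and 11 went opposite ways. Of all genes tested, 46.4% passed in HCT116 and 65.8% in WiDr. How many of all genes passed in both lines, or in opposite directions, was not counted. The split is therefore a description of the members and not a trait particular to them. The 11 with opposite directions were SF3B1, SF3B2, SF3B3, SF3B4, U2AF2, PRPF4, PLRG1, BCAS2, DHX38, PRPF38A and RNPS1, and each also passed the test of the difference. For U2AF2 the level in WiDr short reads is uncertain, as said above. Under library totals 6 of these 11 no longer passed in HCT116 (SF3B3, SF3B4, U2AF2, PRPF4, PLRG1 and DHX38), U2AF2 and PRPF4 no longer passed in WiDr, and the difference of PRPF4 turned to 0.016. AQR, DDX46, DHX15, CDC5L, CRNKL1 and SF3B5 fell in both lines. The difference for DHX15 (-0.14) ended with RLE factors (adjusted p = 0.103), turned to 0.21 with library totals and ended when any library but HCT116 GSK715 replicate 1 was left out (0.0841 to 0.223). That for DDX46 (-0.27) turned to 0.084 with library totals and ended without any library but HCT116 GSK715 replicate 1 and replicate 2 of each WiDr group (0.0529 to 0.098).

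In the ONT libraries of WiDr 37 members were tested, since CRNKL1 was below the count filter. DHX8 rose and PRPF6 fell, that is 1 member each, while 4.29% of 15877 genes rose and 4.51% fell (8.8% in all). DHX8 had 47.8 and 50.4 CPM with GSK715, against 34.5 and 26.7 CPM with DMSO (log2FC 0.67, SE 0.20, adjusted p = 0.0239), the same direction as in short reads. PRPF6 had 37.7 and 38.1 CPM with GSK715, against 51.1 and 74.1 CPM with DMSO (log2FC -0.71, SE 0.19, adjusted p = 0.00959), against a rise of 0.18 in short reads. The GSK715 libraries of DHX8 were both higher and those of PRPF6 both lower than the DMSO libraries.

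These ONT calls did not hold across settings. The DESeq2 test called 0 members and had 2 at an unadjusted p under 0.05, where edgeR had 7. Of all 15877 genes, DESeq2 called 152 higher and 125 lower, where edgeR called 681 and 716. The loss of calls was thus not particular to the members, and unadjusted p-values were not counted over all genes. DHX8 did not pass without any 1 of the 4 libraries (adjusted p from 0.0573 to 0.268), nor PRPF6 without DMSO replicate 2 (0.338), and library totals gave 1 rise and 3 falls. With library totals 592 of all genes rose and 991 fell in ONT. The median SE over members was 0.186 in ONT, against 0.0383 in short reads.

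Between the read types, 11 members had a higher and 3 a lower log2FC in ONT than in short reads, while 11.2% of 24055 genes were higher and 8.69% lower (19.9% in all). Library totals moved the median of all genes by -0.20 and left 3 members higher and 6 lower, against 1802 and 3076 of all genes. The calls of SF3B2, SF3B4, SF3B5, CDC5L, PLRG1, DHX15, DDX46 and RNPS1 were then lost. Fewer members passed as higher without ONT GSK715 replicate 1, and so did fewer of all genes. BCAS2 had a log2FC of -0.19 in ONT, against -1.25 in short reads (difference 1.11, SE 0.18, adjusted p = 0.0007). PRPF38A had 0.11 in ONT, against -0.80 in short reads (difference 0.95, adjusted p = 0.00237, and 0.0711 without ONT DMSO replicate 1). Neither gene passed in ONT on its own (adjusted p = 0.651 for BCAS2 and 0.873 for PRPF38A). The joint fit gives each gene the same spread in both read types, although depth differed widely. The SE of a difference can then be below that of ONT alone, as for PRPF38A (0.17, against 0.26). The p-values of the differences between read types may therefore be too small.

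**Figure D4:**
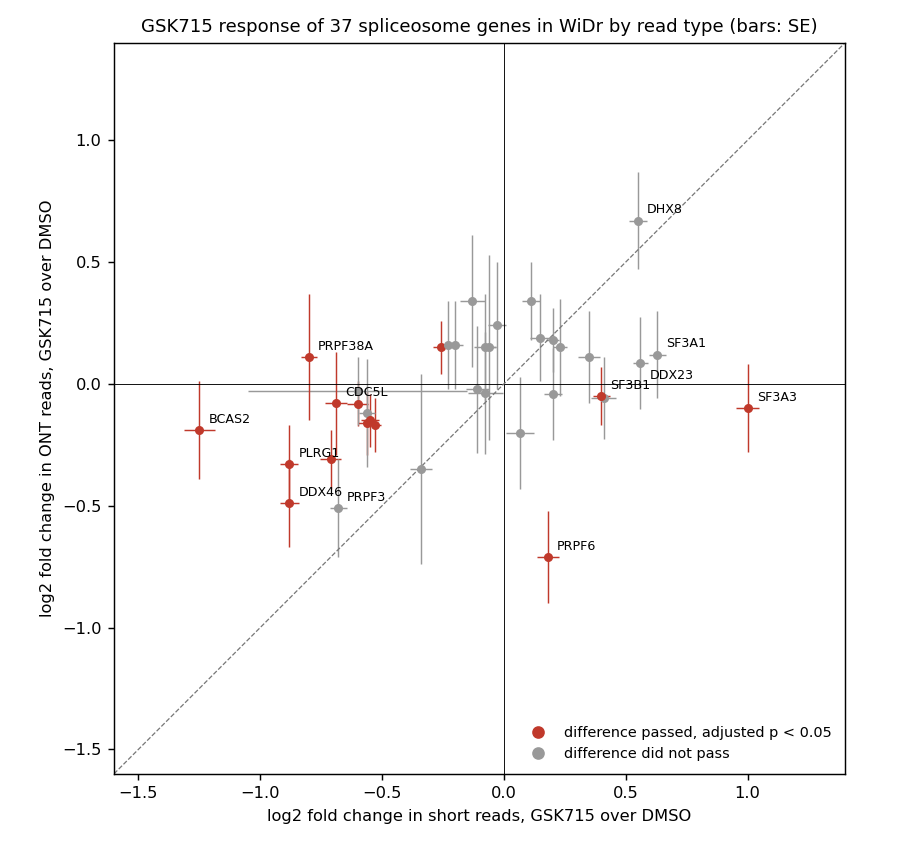
Log2 fold change with GSK715 over DMSO in WiDr for each of the 37 members tested in both, in short reads (x axis) and in ONT reads (y axis), with bars for the SE and a dashed line of equal response. Red points passed the test of the difference between read types. SF3A3 lies at 1.00 in short reads and -0.10 in ONT, and DHX8 lies near the dashed line.

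SF3A3 rose in short reads and did not pass in ONT: it had 53.9 and 42.9 CPM with GSK715 in ONT, against 51.1 and 52.8 CPM with DMSO (log2FC -0.10, adjusted p = 0.812), and the difference from the short-read rise was -1.05 (SE 0.15, adjusted p = 0.00023). The GSK715 and DMSO libraries of ONT overlapped. The SE of the difference was below that of ONT alone (0.18), so the p-value of the difference may be too small. In ONT, 2 pseudogenes of SF3A3 held counts equal to 13.5% of those of SF3A3, against 0.354% in WiDr short reads. The part of these pseudogenes in the difference was not tested.

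U2AF1, the small U2AF subunit that reads the AG at the end of the intron, could not be judged from its own row. GRCh38 holds a near-identical copy of the gene on the same chromosome 21 (U2AF1L5 in GENCODE 29), and U2AF1 took between 16% and 73.8% of the counts of the pair. In WiDr with DMSO, U2AF1 alone had 62.7, 15.2 and 48.5 CPM, while the pair summed to 92.3, 95 and 91.4 CPM. The row alone passed in no comparison, with adjusted p from 0.103 to 0.936.

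**Figure D5:**
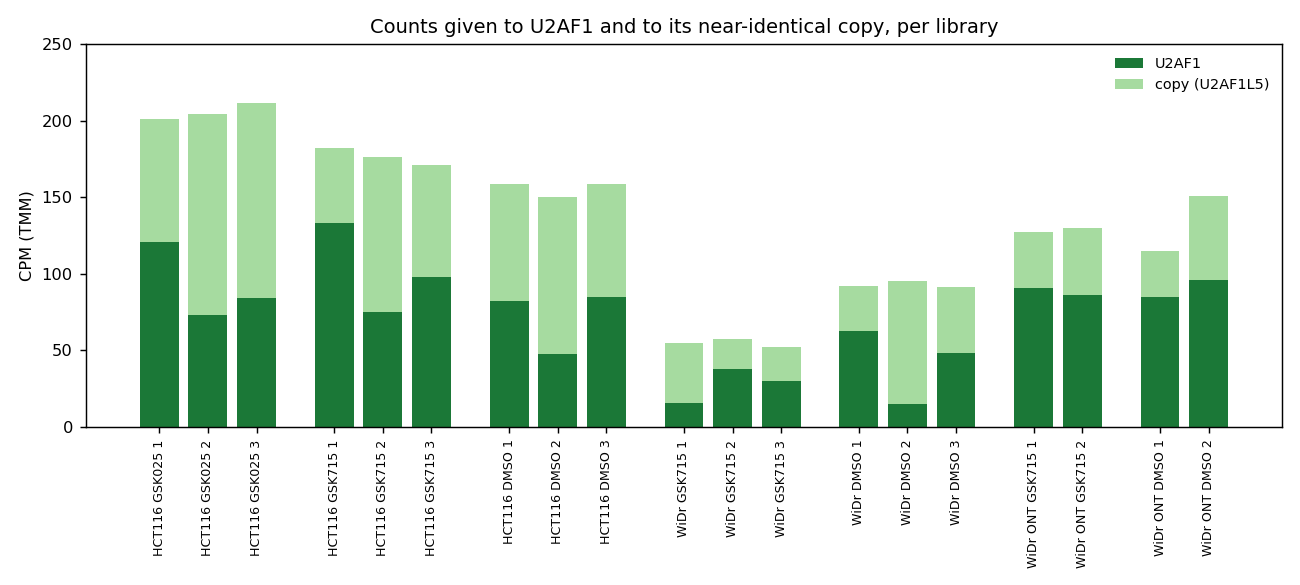
Counts given to U2AF1 (dark green) and to its near-identical copy (light green) in each library, stacked, as TMM-scaled CPM from 0. The split between the 2 rows shifts from library to library, whereas the sums within a short-read group are close, as at 51.9 to 57.1 CPM with GSK715 in WiDr.

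Summed with the copy, a choice made after seeing the data, U2AF1 had 201, 205 and 211 CPM with GSK025 in HCT116, against 158, 150 and 159 CPM with DMSO (log2FC 0.40, SE 0.041, adjusted p = 3.9e-06). With GSK715 in HCT116 it had 182, 176 and 171 CPM (log2FC 0.18, SE 0.041, adjusted p = 0.00261). In WiDr it had 54.5, 57.1 and 51.9 CPM with GSK715, against 92.3, 95 and 91.4 CPM with DMSO (log2FC -0.77, SE 0.04, adjusted p = 7.7e-08). The sums of the inhibitor groups lay above DMSO in HCT116 and below it in WiDr, with no overlap, and the difference between the lines passed (-1.02, SE 0.058, adjusted p = 9.2e-09). In ONT the sum was 127 and 130 CPM with GSK715, against 115 and 151 CPM with DMSO, and did not pass (log2FC -0.04, adjusted p = 0.904).

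The rest of the machinery gives the setting. Of 24 U1, Sm and LSm proteins, 10 rose and 4 fell with GSK025, 15 rose and 4 fell with GSK715 in HCT116, and 1 rose and 16 fell with GSK715 in WiDr, with medians of 0.16, 0.24 and -0.29. LUC7L3, a U1-associated protein, averaged 19 ± 2.76 CPM with GSK025, against 82.6 ± 4.37 CPM with DMSO in HCT116 (log2FC -2.12, adjusted p = 1.4e-08), and fell to 47.2 ± 5.69 CPM with GSK715 in HCT116 (-0.81, adjusted p = 2.2e-05). It rose with GSK715 in WiDr (0.41). Of 32 other tri-snRNP and step factors, 20 rose and 3 fell with GSK025, 18 rose and 6 fell with GSK715 in HCT116, and 8 rose and 19 fell in WiDr. The tri-snRNP kinase PRPF4B fell with GSK025 (-0.58) and with GSK715 in HCT116 (-1.53), and BUD31 rose with GSK715 in HCT116 (0.67) and fell in WiDr (-0.92).

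Of 8 exon junction complex genes, 6 rose and 1 fell with GSK025, 5 rose and 2 fell with GSK715 in HCT116, and 6 fell and none rose in WiDr, PNN falling in each (-0.78, -0.98 and -0.65). Of 11 proteins of the minor spliceosome, 4 rose and 4 fell with GSK025, 5 rose and 3 fell with GSK715 in HCT116, and 5 rose and 3 fell in WiDr. SNRNP48, a U11/U12 protein, fell to 21.5 ± 0.44 CPM with GSK025, against 58.5 ± 1.59 CPM with DMSO (log2FC -1.44, adjusted p = 2.1e-09). Backgrounds for these counts are the shares of all genes given above for each comparison.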

How the data were processed

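RNA of HCT116 and WiDr was sequenced by the submitters. Per the labels, 9 HCT116 and 6 WiDr libraries were short-read and 4 WiDr libraries were ONT cDNA. In the short-read tables the authors deposited raw counts, 1 row a gene. The deposited ONT table holds estimated counts, of which 15.1% were not whole, and these were rounded. A deposited table of ONT read statistics was not used. Build GRCh38 and the tools cutadapt, HISAT2, StringTie, DESeq2, minimap2 and Salmon stand in the submitters' processing notes. Their roles, the annotation release and the strand are not given in the sources used here. In both WiDr tables, columns named NC were taken as DMSO, the only control the labels name.

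Symbols were assigned to Ensembl IDs from the name table supplied with the reference and from GENCODE 29. The 38 members and the other lists were chosen with earlier results of these data known. Values in every library are given for the called members with the 4 highest and 4 lowest log2FC in each comparison with DMSO, and other lists are named by the 2 smallest adjusted p per direction. Fits used R 4.3.3 and edgeR 4.0.16 (filterByExpr with minimum count 10 and minimum total 15, TMM, quasi-likelihood F-test, Benjamini-Hochberg over all genes, threshold 0.05), tested on simulated data. The SE is the absolute log2FC over the square root of F. Alternatives were RLE factors, library totals, no filter, DESeq2 1.42.0, a replicate block, only the groups compared and each library left out.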

Additional observations from a re-analysis of the deposited data

Results flagged for a closer look

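Differences in the response to GSK715 between the lines, or between the read types, are listed here because the test of the difference itself passed (edgeR's quasi-likelihood test, adjusted over all genes). Values are log2 differences, and no explanation was tested. Differences between the lines rest on short reads, and in ONT of WiDr only DHX8 and PRPF6 passed on their own.

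As WiDr minus HCT116, values below 0 were found for 22 members. In the U2 particle and U2AF they were SF3B2 (-0.61), SF3B3 (-0.49), SF3B4 (-0.76), SF3B5 (-0.59), SF3B6 (-0.53) and U2AF2 (-0.55). In U5 and the tri-snRNP they were PRPF8 (-0.19), PRPF3 (-0.87), PRPF4 (-0.34), PRPF31 (-0.32), SART1 (-0.47) and PRPF38A (-1.34). In the Prp19 complex they were PRPF19 (-0.29), CDC5L (-0.57), PLRG1 (-1.11) and BCAS2 (-1.70). Among the helicases and last proteins they were DHX15 (-0.14), DHX16 (-0.61), DHX38 (-0.63), DDX46 (-0.27), SLU7 (-0.30) and RNPS1 (-0.90). U2AF1 summed with its copy had -1.02. Values above 0 were those of SF3A3 (0.61), SF3B1 (0.62), SNRNP200 (0.21), DHX8 (0.29), DDX23 (0.13), DDX42 (0.30) and AQR (0.27). With library totals SF3B6 (-0.18) and SART1 (-0.12) did not pass, and PRPF8, PRPF4, PRPF31, PRPF19, DHX15, DDX46 and SLU7 turned above 0.

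As ONT minus short reads in WiDr, values above 0 were those of SF3B2 (0.45), SF3B4 (0.45), SF3B5 (0.45), SF3B6 (0.57), CDC5L (0.66), PLRG1 (0.60), BCAS2 (1.11), DHX15 (0.41), PRPF38A (0.95), DDX46 (0.44) and RNPS1 (0.44), and of U2AF1 summed with its copy (0.78). Values below 0 were those of SF3A3 (-1.05), SF3B1 (-0.40) and PRPF6 (-0.85). The call of DDX46 ended with library totals (0.23, adjusted p = 0.381), DESeq2, no count filter, the replicate block and without any library but short-read GSK715 replicate 2 (adjusted p from 0.0515 to 0.45). That of SF3B1 ended with no count filter (adjusted p = 0.0665), without any 1 of the short-read GSK715 libraries (0.0608 to 0.0649), without either ONT DMSO library (0.067 and 0.148) and without ONT GSK715 replicate 1, where it was -0.24 (0.157). Without single ONT libraries SF3B2, SF3B4, SF3B5, CDC5L, PLRG1 and PRPF38A also lost theirs (0.0514 to 0.129).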

How the results depend on the processing

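With library totals 13 members rose with GSK715 in HCT116, 3 fell in ONT, 17 were higher and 13 lower in WiDr than in HCT116, and 3 were higher and 6 lower in ONT than in short reads. Of all genes, 2994 then rose with GSK715 in HCT116 and 991 fell in ONT. Between the lines 7321 of all genes were higher and 3203 lower in WiDr, and between read types 1802 were higher and 3076 lower in ONT. Log2 values that changed sign were, with GSK715 in HCT116, SF3B4 -0.029, EFTUD2 -0.0057, PRPF4 -0.025 and SLU7 -0.0067. Between the lines they were SF3A2 0.31, PRPF8 0.17, EFTUD2 0.34, PRPF4 0.016, PRPF6 0.26, PRPF31 0.036, PRPF19 0.07, CWC15 0.34, USP39 0.25, DHX15 0.21, DDX46 0.084 and SLU7 0.055. Summing U2AF1 with its copy turned GSK715 over GSK025 to -0.22. In ONT, 0 members rose and 0 fell without the count filter or with DESeq2. Of all genes, 141 rose and 110 fell there without the filter, and 152 rose and 125 fell with DESeq2.

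Leaving out 1 library gave 4 to 8 falls with GSK025, 0 to 0 rises and 0 to 1 falls in ONT, and 6 to 11 members higher in ONT than in short reads. Of the gene values, 1770 of 1896 kept direction and call with a library left out, 257 of 265 with DESeq2, 258 of 265 with RLE factors and 253 of 265 with no count filter. Where 1 ONT library of a group was left, it was assumed to vary like the other group, and the counts of such fits are not set against all genes. With GSK025, 3859 to 4126 of all genes fell when 1 HCT116 library was left out, against 4370 with every library.

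Deviations of samples with the same replicate number had correlations from -0.1 to 0.079, and those with different numbers from -0.14 to 0.21. With so few libraries per group, these values cannot decide whether the numbers pair samples, and the labels do not say. With a replicate block the rises and falls were 24 and 7 with GSK025, 23 and 9 with GSK715 in HCT116, 13 and 17 in WiDr and 1 and 1 in ONT. Those of all genes were 4226 and 4260 with GSK025, 4239 and 4642 with GSK715 in HCT116, 6249 and 6102 in WiDr and 856 and 850 in ONT. U2AF1 alone then passed with GSK025 (adjusted p = 0.0112) and GSK715 (0.00197) in HCT116.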
